A study of Mus musculus with 12 samples.

Results

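The circadian clock genes described here were *Arntl* (also written *Bmal1*), *Clock*, *Npas2*, *Per1*, *Per2*, *Per3*, *Cry1*, *Nr1d1*, *Nr1d2* and *Dbp*. These 10 genes were taken by name from the 56923 gene identifiers of the count table, and all 10 were detected in every library and passed the filter on low counts. Skin of 12 female mice (8 to 10 weeks old, 3 in each of 4 groups) was profiled by bulk RNA-seq to study the role of *Lcn2* (lipocalin 2, a secreted iron-siderophore carrier) in imiquimod (IMQ) dermatitis, a mouse model of psoriasis driven by a TLR7 agonist. Control and IMQ-treated mice were taken from WT and from the genotype labelled *Lcn2*-/-, a strain on a C57BL/6 background with WT littermates. IMQ groups received 5% IMQ cream on the shaved back every day for 6 days, and control groups a vehicle. The treatment label of the controls reads "none" and the genotype label reads "knockdown". The sample titles read "LCN2 KO", and the label is written here in the notation of the study, *Lcn2*-/-.

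The mammalian clock is a transcriptional feedback loop that runs in nearly every cell, skin cells included. The transcription factor BMAL1 pairs with CLOCK or its relative NPAS2 and switches on the *Per* and *Cry* genes, whose proteins return to the nucleus and repress that pair, while the nuclear receptors REV-ERB alpha (*Nr1d1*) and REV-ERB beta (*Nr1d2*) repress *Arntl* itself. Messages of *Dbp* and *Nr1d1* therefore peak at other hours of the day than that of *Arntl*. The level in a single sample of tissue depends on the phase at which it was taken and on the size of the rhythm, without telling them apart.

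That property limits every comparison below. Neither the labels nor the methods give the hour at which the skin of any mouse was taken, so time of day cannot be told apart from treatment or genotype label. The libraries held between 16448226 and 28592110 counts, and 3 counts, the floor used for detection, corresponded to between 0.105 and 0.182 CPM (counts scaled to a fixed library total). Reads of *Lcn2*, the targeted gene, numbered 320, 173 and 357 in the 3 controls labelled *Lcn2*-/- and 561, 511 and 830 in the 3 IMQ mice so labelled, against 136, 201 and 86 in WT controls and 1010, 2723 and 1572 in WT IMQ mice. These counts go against a loss of the transcript, so groups are called by their label throughout. The RNA extraction text speaks of retinas while the tissue label is skin, and all 10 keratinocyte markers examined were detected in all 12 libraries. WT control mouse 2 stood apart from the other 2 WT controls in several members. Values without it, a mouse singled out after seeing the data, stand beside many of the member results that it moved. They are not given for the other gene lists.

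Promoter sequences from RefSeq (GRCm38.p6, windows of 300 bases around each annotated start) were found for 9 of the members, in 13 windows, and for *Per2* none was used. They are shown because the loop described above acts through 3 short elements: the E-box CACGTG bound by BMAL1 with CLOCK or NPAS2, the D-box TTATGTAA or TTACGTAA bound by DBP and its relatives, and the element TAGGTCA bound by the REV-ERB and ROR receptors. Both strands were searched for exactly these letters, and no match overlapped another. The E-box letters were found for *Per1* and *Cry1*, at 166 and 60 bases before the start, and in 7.15% of all 32851 promoter windows. The D-box letters stood in *Per3*, at 205 and 158 bases before the start, and in 1.06% of all windows. The TAGGTCA element was found in *Arntl*, 30 bases after the start, and in 2.61% of all windows. The stretches follow with the matched letters in capitals, for *Per1* from chr11:69098743-69098828 (plus strand), *Cry1* from chr10:85185069-85185154 (minus), *Per3* from chr4:151044776-151044910 (minus) and *Arntl* from chr7:113207531-113207557 (plus).
Per1: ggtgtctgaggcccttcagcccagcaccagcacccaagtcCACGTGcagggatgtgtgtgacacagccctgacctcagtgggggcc
Cry1: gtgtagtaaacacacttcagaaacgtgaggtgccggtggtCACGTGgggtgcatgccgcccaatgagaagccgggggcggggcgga
Per3: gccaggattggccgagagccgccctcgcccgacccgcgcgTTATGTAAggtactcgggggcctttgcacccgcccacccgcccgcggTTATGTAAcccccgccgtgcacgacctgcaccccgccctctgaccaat
Arntl: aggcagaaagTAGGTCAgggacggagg
Windows of *Clock*, *Npas2*, *Nr1d1*, *Nr1d2* and *Dbp* held none of these letters, which says nothing of elements farther away or of other spellings.

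In WT skin, IMQ was accompanied by higher *Arntl* and *Clock* and by lower *Per3*, *Nr1d1*, *Nr1d2* and *Dbp*. These 6 of 10 members had an adjusted p under 0.05 in edgeR's quasi-likelihood test, 2 higher and 4 lower, where 28.5% of all 18529 genes tested were called (14.2% higher and 14.3% lower). Of the members, 7 had groups that did not overlap, against 40.6% of all genes, and 7 had an unadjusted p under 0.05, against 40.5%. In skin labelled *Lcn2*-/-, 5 of 10 members were called after IMQ, where 25.3% of all genes were (14.1% higher and 11.2% lower). Here 8 members did not overlap, against 45.9% of all genes, and 7 had an unadjusted p under 0.05, against 38.5%. *Per1* and *Per2* were higher, and *Arntl*, *Npas2* and *Nr1d1* were lower. With all mice, *Nr1d1* was the only member called in the same direction in both genotype labels, and *Arntl* was called in opposite directions. The median log2 fold change of the 10 members was -0.15 in WT and 0.23 in skin labelled *Lcn2*-/-. Over all genes tested the medians were -0.02 and -0.05. Both statements on *Nr1d1* and *Arntl* depended on WT control mouse 2. Without that mouse, 8 members were called in WT, against 24.3% of all genes, and 9 did not overlap, against 52.5%. In WT, *Per1* (0.51, adjusted p = 0.0273) and *Per2* (1.09, adjusted p = 0.00346) were then called higher, as under the label *Lcn2*-/-. *Arntl* was then not called in WT (0.54, adjusted p = 0.0906).

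Between genotype labels within a treatment, edgeR called none of the 10 members. Among IMQ mice, 4.78% of all genes were called (2.19% higher and 2.6% lower under the label *Lcn2*-/-), 4 members did not overlap, against 33.3% of all genes, and 3 members had an unadjusted p under 0.05 (*Arntl*, *Nr1d1* and *Dbp*), as did 27.0% of all genes. DESeq2 on all 12 mice called 2 members there, *Nr1d1* and *Dbp*, and 14.6% of the genes to which it gave an adjusted p, and on the 6 IMQ mice alone it called the same 2 and 21.5%. Among controls, 2 genes of all those tested were called (0.0108%), *Cxcl10* higher and *Ky* lower (0.0054% each), named here after their values were seen. For the members, however, 8 of 10 had an unadjusted p under 0.05 between the control groups, against 6.6% of all genes, and 7 of 10 had groups that did not overlap, against 9.37% of all genes. Without WT control mouse 2, 6 members had an unadjusted p under 0.05 (*Per1* and *Per2* no longer did), against 4.76% of all genes, and 8 did not overlap, against 17.8%. Genes of 1 feedback loop are not independent of each other, and these are not 8 separate results. DESeq2 on all 12 mice called 4 members between controls (*Arntl*, *Npas2*, *Per3* and *Dbp*) and 0.641% of the genes to which it gave an adjusted p, and DESeq2 on the 6 control mice alone called 3 (*Arntl*, *Per3* and *Dbp*) and 0.321%.

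**Figure D1:**
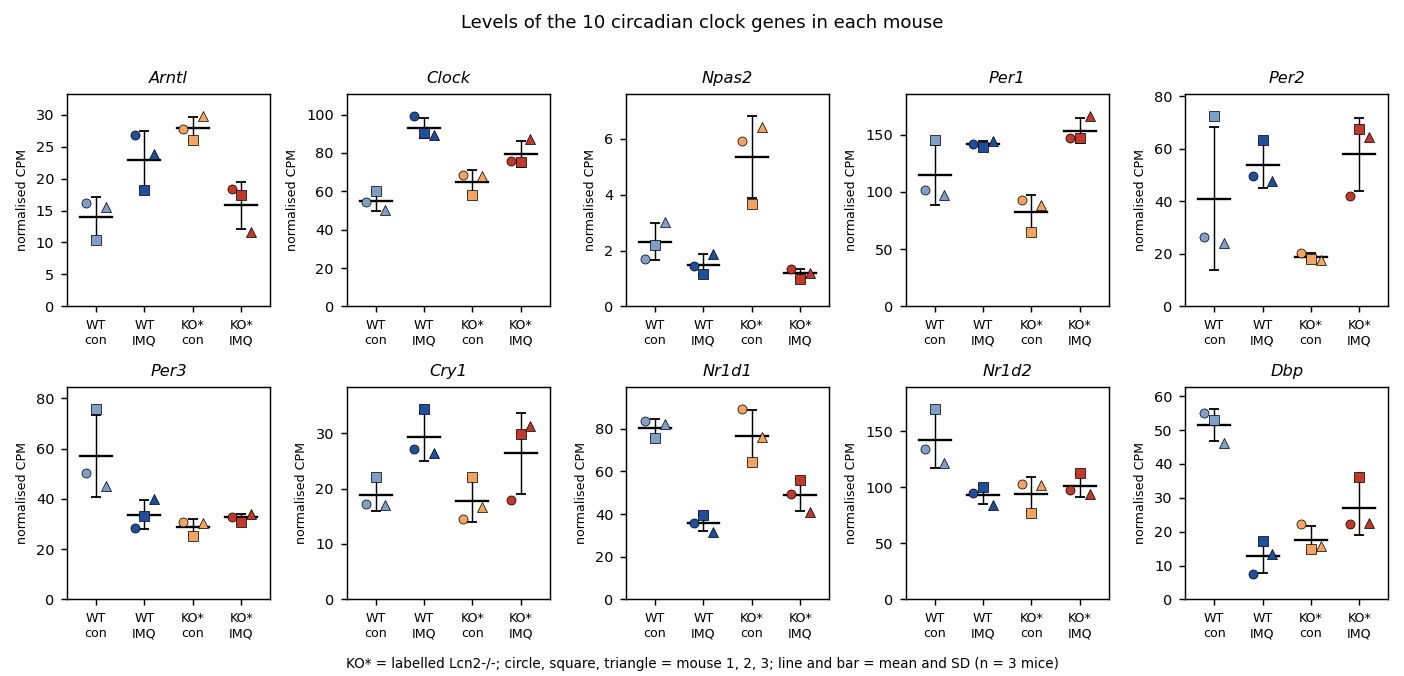
Each panel plots the level of 1 clock gene in normalised CPM (vertical axis, from 0) for the 3 mice of each of the 4 groups, with KO* standing for the label *Lcn2*-/-. Circles, squares and triangles are mice 1, 2 and 3, and the line and bar are the mean and SD: *Dbp* lay between 46.2 and 55.1 in WT controls and at most at 36.1 in all other mice, and *Per2* at 72.4 in WT control mouse 2 against 24.1 and 26.5 in the other 2.

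Levels of different genes were compared only per kilobase of annotated exon. On that scale *Nr1d2*, *Nr1d1* and *Per1* were the 3 most abundant members in each of the 4 groups, at group means between 11.6 and 27.2 CPM per kb, and *Npas2* was the least abundant in each, at 0.25 to 1.11 CPM per kb. In WT controls the order was *Nr1d2*, *Nr1d1*, *Per1*, *Dbp*, *Per2*, *Per3*, *Cry1*, *Clock*, *Arntl* and *Npas2*, and the first 4 overlapped with their neighbours over the 3 mice, as did *Per2*, *Per3* and *Cry1*. *Dbp* had rank 4 there at 17.2 ± 1.57 CPM per kb (SD, n = 3). It had rank 7 in WT IMQ at 4.24 ± 1.65, where it overlapped with *Per3*, which stood next below at 3.51 ± 0.59. All other levels below are normalised CPM of 1 gene and are not divided by length.

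*Arntl* (ENSMUSG00000055116, chr7:113207465-113314126 in GRCm38) encodes BMAL1, which pairs with CLOCK or NPAS2. Its levels were 16.1, 10.4 and 15.5 CPM in the 3 WT controls and 26.8, 18.1 and 23.9 in the 3 WT IMQ mice. They were 27.8, 26.1 and 29.7 in the 3 controls labelled *Lcn2*-/- and 18.4, 17.4 and 11.6 in the IMQ mice so labelled. Every IMQ mouse was above every control in WT, whereas under the label *Lcn2*-/- each IMQ mouse was below every control. The log2 fold change was 0.71 (SE 0.22, adjusted p = 0.0303) in WT and -0.82 (SE 0.22, adjusted p = 0.0188) in skin labelled *Lcn2*-/-. The WT call was lost without WT control mouse 2 (0.54, adjusted p = 0.0906), WT IMQ mouse 1 (0.59, adjusted p = 0.122) or WT IMQ mouse 3 (0.69, adjusted p = 0.084), and in a fit of the 6 WT mice alone (0.71, adjusted p = 0.0641). The call under the label *Lcn2*-/- was lost without control mouse 3 (-0.77, adjusted p = 0.0602) or IMQ mouse 3 (-0.64, adjusted p = 0.0743).

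Between the control groups *Arntl* did not overlap and was 1.99-fold higher under the label *Lcn2*-/-, with a log2 difference of 0.99 (SE 0.22, unadjusted p = 0.00073, adjusted p = 0.271 in edgeR and 0.00499 in DESeq2). It had rank 50 by p among the 18529 genes. Without WT control mouse 2 the difference was 0.84 (unadjusted p = 0.00224, adjusted p = 0.474 in edgeR). Between IMQ groups the log2 difference was -0.54 (SE 0.22, adjusted p = 0.145), and WT IMQ mouse 2 lay within the range of the mice labelled *Lcn2*-/-.

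*Clock* (ENSMUSG00000029238, chr5:76209868-76304792) encodes the usual partner of BMAL1. It stood at 54.2, 60.0 and 50.2 CPM in WT controls and at 99.1, 90.7 and 89.6 in WT IMQ mice. These groups were far apart, and the fitted log2 change, 0.76 (SE 0.11, adjusted p = 0.000454), was called in all 20 other fits. At 1.70-fold it did not pass the call rules that also ask for a 2-fold change. Controls labelled *Lcn2*-/- held 68.7, 58.2 and 68.2 CPM and IMQ mice so labelled 75.8, 75.5 and 87.1. The groups did not overlap there either, and the log2 value of 0.29 (SE 0.11, adjusted p = 0.0729) missed the threshold.

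*Npas2* (ENSMUSG00000026077, chr1:39193731-39363236), which can stand in for *Clock*, was the scarcest member. It held 1.71, 2.19 and 3.03 CPM in WT controls and 1.45, 1.14 and 1.89 in WT IMQ mice, which overlapped (log2 fold change -0.61, SE 0.33, adjusted p = 0.184). In skin labelled *Lcn2*-/- it held 5.91, 3.68 and 6.43 CPM in controls and 1.34, 0.99 and 1.20 in IMQ mice. The IMQ level was 4.52-fold lower (log2 fold change -2.18, SE 0.34, adjusted p = 0.00109). All 3 of these controls were above all 3 WT controls, at a log2 difference of 1.21 (SE 0.32, unadjusted p = 0.00248, adjusted p = 0.441 in edgeR and 0.0441 in DESeq2 on all 12 mice).

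The *Per* genes encode the period proteins, the repressors whose messages also respond quickly to hormones and stress. *Per1* (ENSMUSG00000020893, chr11:69095217-69109960) stood at 102, 145 and 97.0 CPM in WT controls and at 142, 139 and 145 in WT IMQ mice. WT control mouse 2 held as much as the IMQ mice, and the log2 fold change was 0.31 (SE 0.17, adjusted p = 0.189). Without that mouse it was 0.51 (adjusted p = 0.0273). In skin labelled *Lcn2*-/- *Per1* held 93.1, 65.2 and 88.2 CPM in controls and 147, 147 and 166 in IMQ mice. It rose by 0.90 on the log2 scale (SE 0.17, adjusted p = 0.00303).

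*Per2* (ENSMUSG00000055866, chr1:91415982-91459324) showed the largest spread within any group. It held 26.5, 72.4 and 24.1 CPM in WT controls and 49.7, 63.6 and 47.8 in WT IMQ mice. WT control mouse 2 exceeded every other mouse of the series, and with it the log2 fold change in WT was 0.39 (SE 0.36, adjusted p = 0.447), whereas without it the value was 1.09 (adjusted p = 0.00346). In the other genotype label the controls held 20.5, 18.1 and 17.8 CPM and the IMQ mice 41.9, 67.4 and 64.5. *Per2* rose 3.08-fold there (log2 fold change 1.62, SE 0.37, adjusted p = 0.00861). Between the control groups the log2 difference was -1.12 (unadjusted p = 0.00948, adjusted p = 0.63) with WT control mouse 2 and -0.40 (unadjusted p = 0.0722, adjusted p = 0.999) without it.

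*Per3* (ENSMUSG00000028957, chr4:151003652-151044665), the member with a pair of D-box matches shown above, fell in WT and was near level in the other genotype label. The WT controls held 50.2, 75.7 and 45.1 CPM and the WT IMQ mice 28.4, 33.1 and 39.8. Its log2 fold change in WT was -0.76 (SE 0.19, adjusted p = 0.0116), a call that was lost without WT IMQ mouse 1 (-0.65, adjusted p = 0.0571) and in a fit of the 6 WT mice alone (-0.76, adjusted p = 0.0517). WT control mouse 2 held the highest *Per3* of the series, and without it the value was -0.50 (adjusted p = 0.0368). In skin labelled *Lcn2*-/- it held 30.9, 25.3 and 30.5 CPM in controls and 33.0, 31.0 and 34.0 in IMQ mice (log2 fold change 0.18, SE 0.19, adjusted p = 0.528). The control groups did not overlap, and the level under the label *Lcn2*-/- was 1.97-fold lower (log2 difference -0.98, SE 0.19, unadjusted p = 0.000246, adjusted p = 0.208 in edgeR and 0.00242 in DESeq2 on all 12 mice), at rank 21 of 18529 by p. Without WT control mouse 2 that difference was -0.70 (unadjusted p = 0.000778, adjusted p = 0.304).

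*Cry1* (ENSMUSG00000020038, chr10:85131700-85185064) encodes a cryptochrome, the repressor that joins the period proteins. It held 17.1, 22.1 and 17.1 CPM in WT controls and 27.1, 34.3 and 26.4 in WT IMQ mice, groups that did not overlap. At 0.64 on the log2 scale (SE 0.23, adjusted p = 0.0549), the rise missed the threshold in edgeR on all 12 mice and passed it in DESeq2 on the same mice (adjusted p = 0.0273). Without WT control mouse 2, control mouse 2 labelled *Lcn2*-/- or IMQ mouse 1 so labelled, edgeR gave an adjusted p of 0.0452, 0.0454 and 0.0294 for log2 fold changes of 0.77, 0.64 and 0.64. Mice labelled *Lcn2*-/- held 14.5, 22.1 and 16.7 CPM in controls and 18.0, 29.9 and 31.2 in IMQ mice, which overlapped (0.57, SE 0.23, adjusted p = 0.0864, and 0.78 with adjusted p = 0.0251 without IMQ mouse 1).

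*Nr1d1* (ENSMUSG00000020889, chr11:98767932-98775333) encodes REV-ERB alpha. It held 83.4, 75.5 and 82.3 CPM in WT controls and 36.0, 39.7 and 31.8 in WT IMQ mice. Under the label *Lcn2*-/- it held 89.1, 64.6 and 76.4 CPM in controls and 49.6, 55.8 and 40.8 in IMQ mice. IMQ mice were below controls in both genotype labels with no overlap, at a log2 value of -1.17 (SE 0.15, adjusted p = 0.000188) in WT and -0.65 (SE 0.15, adjusted p = 0.00791) under the label *Lcn2*-/-. All 3 IMQ mice labelled *Lcn2*-/- were above all 3 WT IMQ mice, at a log2 difference of 0.45 (SE 0.15, adjusted p = 0.0885 in edgeR and 0.047 in DESeq2 on all 12 mice). The control groups overlapped, at -0.07 (SE 0.14, adjusted p = 0.978). *Nr1d1* shares 263 exon bases (8.55% of its exons) with *Thra*, on the opposite strand, which also fell after IMQ (log2 fold change -0.81, adjusted p = 0.000552 in WT). The strand setting of the counting is not given in the sources used here, so reads in that overlap cannot be assigned.

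*Nr1d2* (ENSMUSG00000021775, chr14:18204054-18239127) encodes REV-ERB beta and was called in WT and not under the label *Lcn2*-/-. It held 134, 169 and 122 CPM in WT controls and 95.1, 100.3 and 83.9 in WT IMQ mice, without overlap (log2 fold change -0.61, SE 0.15, adjusted p = 0.0125). Without WT IMQ mouse 3 the value was -0.54 (adjusted p = 0.0556), and without WT control mouse 2, the highest of the series, -0.46 (adjusted p = 0.0462). Under the label *Lcn2*-/- the controls held 103, 76.6 and 102 CPM and the IMQ mice 97.5, 113 and 93.9 (log2 fold change 0.11, SE 0.15, adjusted p = 0.631). These overlapped with each other, and the controls among them were all below the WT controls (log2 difference -0.59, SE 0.15, unadjusted p = 0.00234, adjusted p = 0.437, and -0.42 with unadjusted p = 0.0172 without WT control mouse 2). Whether the IMQ response of *Nr1d2* differed between genotype labels was tested directly and missed the threshold (difference 0.72, SE 0.22, adjusted p = 0.0895).

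*Dbp* (ENSMUSG00000059824, chr7:45705088-45710203) encodes the D-box binding protein, a PAR bZIP transcription factor that relays BMAL1 activity to output genes. It held 55.1, 53.1 and 46.2 CPM in the 3 WT controls and 7.39, 17.1 and 13.5 in the 3 WT IMQ mice. In skin labelled *Lcn2*-/- it held 22.2, 14.9 and 15.8 CPM in controls and 22.3, 36.1 and 22.7 in IMQ mice. The WT controls stood above all other 9 mice. In WT *Dbp* fell 4.06-fold (log2 fold change -2.02, SE 0.29, adjusted p = 0.000516), and all 20 other fits called it. Under the label *Lcn2*-/- every IMQ mouse was above every control, the closest pair being 22.2 and 22.3 CPM, and the log2 value of 0.61 (SE 0.28, adjusted p = 0.134) was not called.

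*Dbp* also showed the lowest p of the members between the control groups. Its level was 2.92-fold lower under the label *Lcn2*-/-, at a log2 difference of -1.54 (SE 0.29, unadjusted p = 0.000186, rank 15 of 18529), with an adjusted p of 0.208 in edgeR and 0.000271 in DESeq2 on all 12 mice. Among IMQ mice it was 2.13-fold higher under the label *Lcn2*-/- (log2 difference 1.09, SE 0.29, adjusted p = 0.0525). That value passed without WT IMQ mouse 2 (1.37, adjusted p = 0.018) and in DESeq2 on all 12 mice (1.10, adjusted p = 0.00572). *Dbp* shares 539 exon bases (18.0% of its exons) with *Sphk2* on the opposite strand, whose log2 fold change after IMQ was -0.32 in WT (adjusted p = 0.0505) and -0.35 under the label *Lcn2*-/- (adjusted p = 0.0401).

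**Figure D2:**
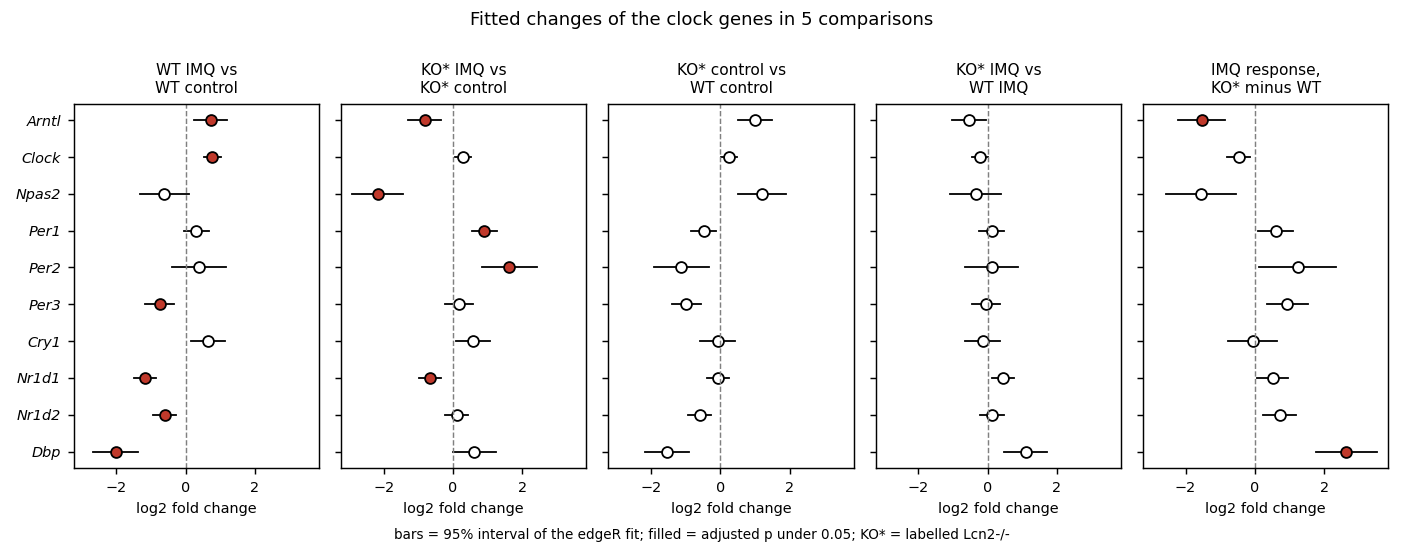
Points are log2 fold changes (horizontal axis) of the 10 clock genes (vertical axis) in 5 comparisons, bars are the 95% intervals of the edgeR fit, filled points have an adjusted p under 0.05, and KO* stands for the label *Lcn2*-/-. *Arntl* lies at 0.71 and -0.82 in the first 2 panels, no point is filled in the panels that compare genotype labels within a treatment, and *Dbp* (2.63) and *Arntl* (-1.53) are filled in the last.

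The IMQ responses of the genotype labels were then compared directly, as the log2 fold change under the label *Lcn2*-/- minus that in WT. *Dbp* and *Arntl* differed, 2 of 10 members, where 2.15% of all genes were called (1.37% higher and 0.783% lower). An unadjusted p under 0.05 was found for 9 of 10 members and for 24.1% of all genes, and without WT control mouse 2 for 7 members and 19.1%. The difference was 2.63 for *Dbp* (95% interval 1.75 to 3.52, adjusted p = 0.0195) and -1.53 for *Arntl* (-2.21 to -0.86, adjusted p = 0.038). All 4 groups enter this value, and the part of it that comes from the control groups was described above. *Npas2* stood at -1.56 (adjusted p = 0.0877), *Per3* at 0.93 (adjusted p = 0.0815), *Per2* at 1.23 (adjusted p = 0.168) and *Clock* at -0.47 (adjusted p = 0.103). The *Per2* value rested on WT control mouse 2, and without that mouse it was 0.54 (adjusted p = 0.305). The remaining members, *Per1*, *Cry1* and *Nr1d1*, had differences of 0.59, -0.07 and 0.51 with adjusted p of 0.154, 0.922 and 0.16, and the interval of *Cry1* was -0.77 to 0.64. Without WT control mouse 2 the difference was 0.67 (adjusted p = 0.138) for *Per3* and 0.39 (adjusted p = 0.307) for *Per1*.

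The sizes of the *Dbp* and *Arntl* differences hardly moved when single mice were left out, between 2.36 and 2.91 and between -1.67 and -1.35, but their calls depended on the mice. The *Dbp* call was lost (adjusted p between 0.052 and 0.067) without WT control mouse 1, WT IMQ mouse 1 or 3, control mouse 2 or 3 labelled *Lcn2*-/-, or IMQ mouse 2 so labelled. The *Arntl* call was kept only without WT control mouse 3, WT IMQ mouse 2 or control mouse 1 labelled *Lcn2*-/-, and without any 1 of the other 9 its adjusted p lay between 0.057 and 0.124. *Npas2* passed without WT IMQ mouse 2 (-1.71, adjusted p = 0.045) and *Per3* without WT control mouse 3 (1.08, adjusted p = 0.0374). DESeq2 on all 12 mice called 6 members (*Arntl*, *Clock*, *Npas2*, *Per3*, *Nr1d2* and *Dbp*) and 12.5% of the genes to which it gave an adjusted p.

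Averaged over genotype labels, 7 of 10 members were called after IMQ, where 38.4% of all genes were (18.9% higher and 19.4% lower), and 8 had an unadjusted p under 0.05, against 47.4%. *Clock* (0.53, SE 0.08), *Per1* (0.60, SE 0.12), *Per2* (1.00, SE 0.25) and *Cry1* (0.61, SE 0.16) were higher, with adjusted p between 0.000315 and 0.0113. Without WT control mouse 2 the average for *Per2* was 1.35 (adjusted p = 2.92e-05). *Npas2* (-1.40, SE 0.23), *Nr1d1* (-0.91, SE 0.10) and *Dbp* (-0.70, SE 0.20) were lower, with adjusted p between 4.87e-05 and 0.0167. For *Arntl* the average of -0.05 (SE 0.15) joins changes of opposite sign. *Per3* stood at -0.29 (adjusted p = 0.106) and *Nr1d2* at -0.25 (adjusted p = 0.0913), and each passed without 1 control, *Per3* without WT control mouse 3 (-0.36, adjusted p = 0.0464) and *Nr1d2* without control mouse 2 labelled *Lcn2*-/- (-0.31, adjusted p = 0.0328).

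Most changes of the members were smaller than 2-fold. A change above 2-fold with an adjusted p under 0.05 was found in WT for *Nr1d1* and *Dbp* (14.9% of all genes) and under the label *Lcn2*-/- for *Npas2* and *Per2* (13.6%), between genotype labels for none (1.51% among IMQ mice and 0.0108% among controls), for the difference of responses for *Arntl* and *Dbp* (1.65%), and on average for *Npas2* and *Per2* (15.0%). With the unadjusted p in its place the counts were 2 in WT (18.2% of all genes), 2 under the label *Lcn2*-/- (17.0%), 1 among IMQ mice (*Dbp*, 6.45%), 3 among controls (*Npas2*, *Per2* and *Dbp*, 2.28%), 4 for the difference (*Arntl*, *Npas2*, *Per2* and *Dbp*, 11.0%) and 2 on average (16.3%). Without WT control mouse 2, *Per2* left the lists of the controls and of the difference, which then held 2 members (2.22% of all genes) and 3 (8.38%), and joined that of WT, which then held 3 (17.8%).

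The levels of *Arntl* and *Dbp* were set against each other within each mouse, per kilobase of exon, because both come from 1 library and the ratio does not depend on its depth. The ratio of *Arntl* to *Dbp* was 0.12, 0.078 and 0.13 in WT controls and 1.44, 0.42 and 0.70 in WT IMQ mice. In skin labelled *Lcn2*-/- it was 0.50, 0.70 and 0.75 in controls and 0.33, 0.19 and 0.20 in IMQ mice. The WT controls had the lowest ratios of the series, the WT IMQ mice overlapped with the controls labelled *Lcn2*-/-, and the IMQ mice so labelled lay between these and the WT controls. As a ratio of members already described, it was given no test.

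**Figure D3:**
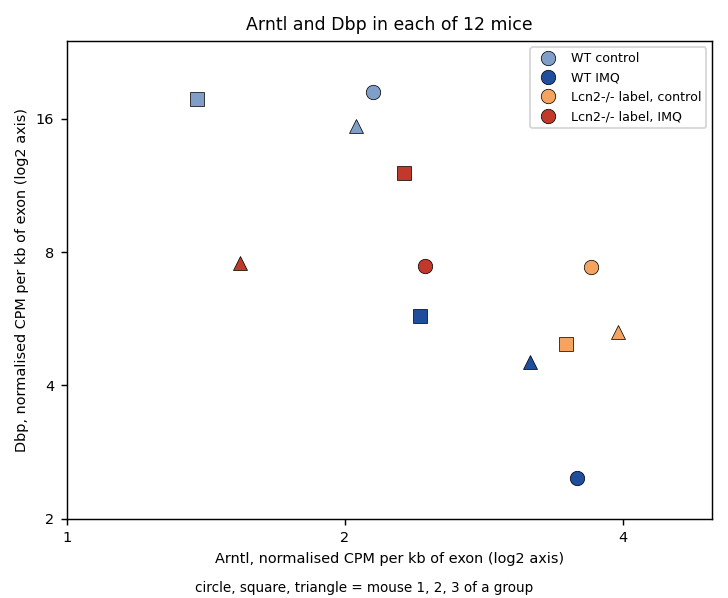
Each point is 1 of the 12 mice, with *Arntl* on the horizontal and *Dbp* on the vertical axis, both in normalised CPM per kb of exon on log2 axes, and the colour gives the group and the shape the mouse number. WT controls lie at the top left, with ratios of *Arntl* to *Dbp* between 0.078 and 0.13, and WT IMQ mice at the lower right with ratios between 0.42 and 1.44.

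Of 21 other genes of the clock and its outputs (further cryptochrome, ROR, PAR bZIP, DEC, casein kinase and F-box genes, and direct clock targets), all were tested. In WT, 7 of 21 (33.3%) were called after IMQ, 4 higher and 3 lower, where 28.5% of all genes were called. The PAR bZIP relatives of *Dbp* fell with it. *Tef* held 208, 302 and 212 CPM in WT controls and 104, 124 and 107 in WT IMQ mice (log2 fold change -1.11, SE 0.16, adjusted p = 0.000451). *Hlf* held 34.4, 44.6 and 33.0 CPM and 6.18, 13.9 and 8.91 in the same groups (-1.95, SE 0.33, adjusted p = 0.00141). Both genes therefore stood in WT IMQ mice below all WT controls, as *Dbp* did.

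The DEC genes *Bhlhe40* and *Bhlhe41*, E-box binding repressors of the loop, moved in opposite directions in WT. *Bhlhe41* fell from 27.5, 20.7 and 29.8 CPM to 3.03, 3.29 and 4.36 (log2 fold change -2.86, SE 0.23, adjusted p = 8.38e-06), and *Bhlhe40* rose from 78.8, 68.7 and 76.4 CPM to 145, 148 and 157 (1.00, SE 0.13, adjusted p = 0.000188). *Noct*, which encodes nocturnin, a rhythmic NADP(H) phosphatase, rose from 25.5, 20.0 and 21.6 CPM to 97.3, 74.9 and 98.9 (2.01, SE 0.20, adjusted p = 2.82e-05). *Arntl2*, the paralogue of *Arntl*, rose from 9.38, 10.4 and 10.6 CPM to 37.4, 16.4 and 31.2 (1.49, SE 0.31, adjusted p = 0.00464).

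Under the label *Lcn2*-/-, 4 of the 21 (19.0%) were called after IMQ, 2 higher and 2 lower, against 25.3% of all genes. *Bhlhe41* fell from 19.6, 20.6 and 14.5 CPM to 3.30, 4.74 and 4.62 (log2 fold change -2.11, SE 0.23, adjusted p = 0.000127). *Timeless* (-0.87, SE 0.20, adjusted p = 0.00921), a relative of the fly clock gene that acts at replication forks, was lower. *Wee1* (1.09, SE 0.23, adjusted p = 0.00649), an E-box controlled cell cycle kinase, and *Noct* (0.74, SE 0.19, adjusted p = 0.0161) were higher. *Bhlhe40* held 77.6, 91.3 and 68.9 CPM in these controls and 103, 80.4 and 88.1 in these IMQ mice, which overlapped.

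**Figure D4:**
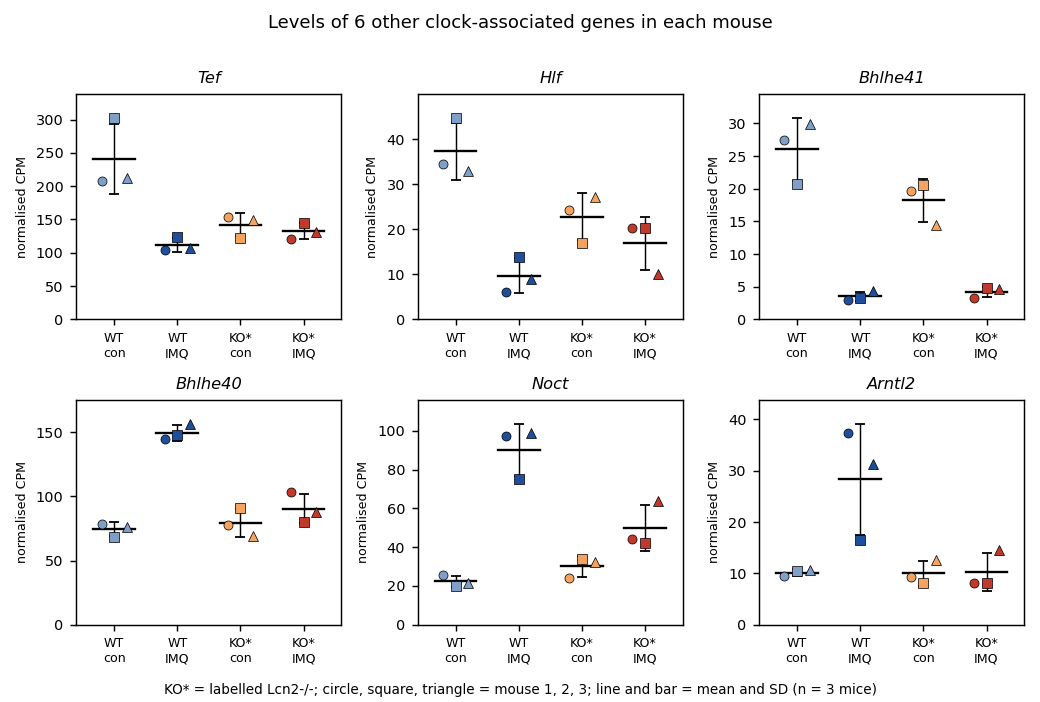
Panels plot normalised CPM (vertical axis, from 0) of 6 other clock-associated genes for the 3 mice of each group, with symbols, mean and SD as in the plot of the 10 clock genes and KO* for the label *Lcn2*-/-. *Bhlhe41* lies between 3.03 and 4.74 in all 6 IMQ mice and between 14.5 and 29.8 in all 6 controls, while *Bhlhe40* and *Noct* are highest in WT IMQ mice.

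Direct tests of the difference between the IMQ responses called 3 of these 21 genes (14.3%, against 2.15% of all genes): *Tef* (1.00, SE 0.22, adjusted p = 0.0439), *Noct* (-1.28, SE 0.27, adjusted p = 0.0414) and *Bhlhe40* (-0.81, SE 0.18, adjusted p = 0.0436). Among IMQ mice, *Bhlhe40* (-0.72, adjusted p = 0.0219), *Arntl2* (-1.47, adjusted p = 0.0336) and *Noct* (-0.85, adjusted p = 0.0353) were lower under the label *Lcn2*-/-, again 14.3% of the 21, against 4.78% of all genes. Between the control groups edgeR called none of the 21, of which 6 had an unadjusted p under 0.05, against 6.6% of all genes. *Tef* was lower there under the label *Lcn2*-/- without overlap (log2 difference -0.76, unadjusted p = 0.00043, adjusted p = 0.25). Between the IMQ groups *Tef* overlapped, at 0.24 (adjusted p = 0.341). WT control mouse 2 held 302 CPM of *Tef*, against 208 and 212 in the other WT controls. Values of *Tef* without that mouse are not given. The control difference was 0.43 (unadjusted p = 0.0461) for *Noct* and 0.09 (unadjusted p = 0.503) for *Bhlhe40*. Averaged over genotype labels, 10 of 21 (47.6%) were called, 5 in each direction, against 38.4% of all genes.

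*Per1* and *Per2* also respond to glucocorticoids and to temperature, and lists of genes known for these responses were therefore set beside them. Of 9 glucocorticoid-induced genes, 2 (22.2%) were called in WT, *Mt1* higher at 0.94 and *Klf9* lower at -0.65, against 28.5% of all genes. Under the label *Lcn2*-/- 3 (33.3%) were called, all higher, against 25.3% of all genes (14.1% higher). These were *Tsc22d3* at 1.35, *Sgk1* at 0.66 and *Dusp1* at 1.57. WT control mouse 2, the one high in *Per2*, was the highest of the WT controls in 7 of the 9 listed genes and the lowest in the other 2, *Mt1* and *Mt2*. It held 602 CPM of *Tsc22d3* and 318 of *Dusp1*, against 308 and 293 and against 85.2 and 66.7 in the other 2 WT controls. Over all genes tested, that mouse also deviated most from the mean of the WT controls (SD of log2 deviations 0.407, against 0.252 and 0.338). The share of all genes in which it was the highest or lowest is not given. Of 4 heat-inducible genes, none was called in WT by edgeR, 2 having an unadjusted p under 0.05, against 40.5% of all genes. Under the label *Lcn2*-/- 3 (75%) were called higher, against 14.1% of all genes, among them *Hspa1b* (1.46, adjusted p = 7.29e-05) and *Hspa8* (0.60, adjusted p = 0.00745). *Hspa1b* and its neighbour *Hspa1a* are near-identical copies, so reads could be split between them. Of the 2 cold-inducible genes, *Rbm3* was higher in WT (0.52, adjusted p = 0.0433) and *Cirbp* lower under the label *Lcn2*-/- (-0.50, adjusted p = 0.0287). Between the control groups edgeR called none of these genes. There 1 of the 9 glucocorticoid-induced and 2 of the 4 heat-inducible genes had an unadjusted p under 0.05, against 6.6% of all genes. The part of hormone or temperature responses in the *Per1* and *Per2* values was not tested.

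Markers of several cell types moved with IMQ as well. Over all genes, 28.5% were called in WT (14.2% higher and 14.3% lower). Under the label *Lcn2*-/- 25.3% were called (14.1% higher and 11.2% lower). In bulk tissue, fewer cells of a type and less RNA per cell cannot be told apart. The summed level of 6 neutrophil markers was 15.1 to 71.7 CPM in controls and 3774 to 10420 in IMQ mice, and all 6 markers were called higher in both genotype labels. *Ly6g* was at 0 in some controls. The sum of 10 keratinocyte markers was 6629 to 10679 CPM in controls, 33587 to 45045 in WT IMQ mice and 19587 to 31045 in IMQ mice labelled *Lcn2*-/-. Of these 10, 9 were called in WT (8 higher) and 6 under the label *Lcn2*-/- (5 higher). Muscle, which keeps a strong clock, lies below the skin: the sum of its 10 markers was 14172 to 15026 CPM in WT controls, 6308 to 8091 in WT IMQ mice, 7112 to 13173 in controls labelled *Lcn2*-/- and 6657 to 9866 in IMQ mice so labelled. Of these 10, 7 were called lower in WT and 5 under the label *Lcn2*-/-. The marker *Myh2* was called higher in both, at 1.54 (adjusted p = 0.00353) in WT and 1.81 (adjusted p = 0.00206) under the label *Lcn2*-/-. Of 6 macrophage markers, 1 rose in WT and 6 under the label *Lcn2*-/-, where their sum was 1023 to 2008 CPM in controls and 4057 to 5850 in IMQ mice. In WT their sum was 2518, 3907 and 1148 CPM in control mice 1, 2 and 3. It was 2744 to 4164 in WT IMQ mice, so these groups overlapped. Of 6 T cell markers 4 fell in WT, and of 8 adipocyte markers 1 fell in each genotype label.

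Between the 2 control groups none of the marker lists held a call in edgeR. An unadjusted p under 0.05 was found for 4 of the 10 hair follicle markers, against 6.6% of all genes, and all 10 were higher under the label *Lcn2*-/-. It was also found for 2 of 6 macrophage markers (all 6 lower) and 2 of 6 neutrophil markers (5 higher and 1 lower). The muscle, adipocyte and fibroblast lists held 1 such marker each, and the keratinocyte and T cell lists 0. The 10 hair follicle markers summed to 3061, 12.4 and 1684 CPM in WT controls and to 175, 10424 and 4098 in controls labelled *Lcn2*-/-, and to at most 93.3 in IMQ mice. *Krt33b*, *Krt34* and *Dsg4* were at 0 in some WT controls. WT control mouse 2 had the lowest hair follicle sum of the controls and the highest adipocyte sum of the WT controls (6079 CPM of 8 markers, against 3700 and 3573). Fibroblast markers summed to 10459 to 17660 CPM in WT controls, 10557 to 11161 in WT IMQ mice, 11117 to 12317 in controls labelled *Lcn2*-/- and 20552 to 21383 in IMQ mice so labelled. Of these 8 markers, 3 (37.5%) were among the genes whose IMQ response differed between genotype labels, against 2.15% of all genes. The part of cell composition in the values of the clock genes was not tested.

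Within groups, the genes most like *Arntl* and *Dbp* were sought over the 12 mice, as the Pearson correlation of log2 CPM after each group mean was subtracted, among 15982 genes with a mean of at least 1 CPM. Closest to *Arntl* were *3425401B19Rik* (r = 0.954), *Thap3* (0.948), *Adamts17* (0.93), *Efcab5* (0.925) and *Cox6b2* (0.923). No other member was near the top of that list, and *Per2* (r = -0.744) and *Cry1* (r = -0.697) had ranks 232 and 444 from the most opposite end. Closest to *Dbp* were *G0s2* (r = 0.935), *Traf5* (0.934), *Fcor* (0.931), *Olfml3* (0.909) and *Dap* (0.905). These points share libraries and number 3 in each group, and the correlations are given as a description.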

How the data were processed

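Skin of 12 mice was profiled by bulk RNA-seq with paired reads of 150 bp. The authors deposited 1 table of raw counts per Ensembl gene and library. Per the labels' processing notes HISAT and the build mm8 were used; the counter, annotation and strand setting are not given in the sources used here. Symbols and positions came from GENCODE M21 (GRCm38), which holds 52073 of 56923 identifiers (91.5%), and the other identifiers took up 0.567% of the counts.

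Samples were grouped by their titles. Counts were normalised by TMM, and 18529 genes passing filterByExpr (minimum count 10, minimum total 15) were fitted with edgeR 4.0.16 (limma 3.58.1, R 4.3.3), as a robust quasi-likelihood model of 4 group means over all 12 mice (common biological coefficient of variation 0.253), although the study used DESeq2. All p-values are two-sided, adjusted p-values are Benjamini-Hochberg over all 18529 genes, and a gene was called at an adjusted p under 0.05 whatever its fold change. Normalised CPM are counts divided by the TMM-scaled library size. Intervals and floors cover counting error only or the fitted spread, as reads carry no molecular identifiers. No label pairs same-numbered mice of different groups, which are different animals. No 2 libraries of a group agreed within counting noise.

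All 10 members are named in every comparison. Of the list of other clock genes and the list of glucocorticoid and temperature responsive genes, those with an adjusted p under 0.05 are named, at most 6 by adjusted p, and the plot of other clock genes shows the 6 named in WT. For likeness, the 5 genes with the highest r to *Arntl* and to *Dbp* are named (0.5 CPM added before log2). The members and lists were chosen with earlier results of these data known. Scripts were tested on simulated counts. Alternatives were RLE size factors, DESeq2 1.42.0 on all 12 or the compared mice, edgeR on the compared mice, other filters and call rules, counts thinned to the smallest library, the replicate block and each mouse left out.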

Additional observations from a re-analysis of the deposited data

Results flagged for a closer look

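The IMQ response differed between genotype labels, by the test of the difference itself (log2 fold change under the label *Lcn2*-/- minus that in WT), for *Dbp* (2.635), *Arntl* (-1.535), *Tef* (1.004), *Noct* (-1.278), *Bhlhe40* (-0.8119) and *Hspa1b* (1.11). *Per3* (difference 0.931) and *Hspa1a* (difference 0.9091) were looked at again because all IMQ mice moved one way from the controls in WT and the other way under the label *Lcn2*-/-. That no-overlap pattern itself was not tested, and the edgeR test of the difference did not call either gene. For *Per3* under the label *Lcn2*-/- the closest control and IMQ mice held 30.9 and 31.0 CPM, and the log2 value of 0.18 was not called (adjusted p = 0.528). All 8 values draw on the same 12 mice, and the sampling hour cannot be told apart from any group.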

How the results depend on the processing

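For the 10 members in 6 comparisons, 1160 values were computed under other settings, of which 1088 kept direction and side of the threshold, 26 lost the call, 33 gained one and 13 changed sign, all 13 with a mouse left out and none of them a called value. Requiring also a 2-fold change left 2 members called in WT, 2 under the label *Lcn2*-/- and 2 in the average, and a 2-fold change with an unadjusted p gave 2, 2 and 2 there, 1 among IMQ mice, 3 among controls and 4 for the difference of responses. DESeq2 on all 12 mice gave 2 among IMQ mice, 4 among controls and 6 for the difference, DESeq2 on the compared mice 2 among IMQ mice and 3 among controls, and a filter of at least 10 counts in every library 1 among IMQ mice. The causes were not tested. With a mouse left out, the calls ranged from 4 to 8 in WT, 0 to 1 among IMQ mice, 4 to 6 under the label *Lcn2*-/-, 0 to 0 among controls, 0 to 3 for the difference and 7 to 8 in the average. Signs changed for log2 values near 0: among IMQ mice *Per2* (-0.0104 to 0.30), *Per3* (-0.16 to 0.0863) and *Cry1* (-0.29 to 0.0666), under the label *Lcn2*-/- *Nr1d2* (-0.0175 to 0.18), among controls *Cry1* (-0.27 to 0.0743) and *Nr1d1* (-0.19 to 0.0417), in the difference *Cry1* (-0.21 to 0.15) and in the average *Arntl* (-0.14 to 0.0357). No label pairs same-numbered mice. The mean correlation of their deviations from the group means was 0.2 for WT IMQ and control, 0.101 for the IMQ groups, -0.0977 under the label *Lcn2*-/- and -0.408 for the controls. For mice numbered 2 it was 0.351 for WT IMQ and control and -0.667 for the controls. Whether mice of 1 number shared a further factor was not tested. With the replicate block 7 members were called in WT, 6 under the label *Lcn2*-/-, 7 in the average and 0 for the difference, where the adjusted p was 0.0541 for *Dbp* and 0.0628 for *Arntl*. Shares of all genes called are not given for the replicate block, the filter of at least 10 counts or most fits with a mouse left out. Member counts of those fits therefore cannot be set against all genes. With 3 mice a group and a common biological coefficient of variation of 0.253, small changes could be missed, and *Npas2* had the fewest counts of the members (677 over 12 libraries). Thinning all libraries to the smallest changed 1 call of a member, that of *Cry1* in WT (0.65, adjusted p = 0.0472).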
